A study of Homo sapiens with 4 samples.

Results

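The array signals of 10 genes of the NF-kB system were examined in SAS cells, a human tongue squamous carcinoma line, with and without C6orf141 overexpression. The genes were the subunits NFKB1, NFKB2, RELA and RELB, the kinase IKBKB, the adaptor TRAF1, the inhibitors NFKBIA and TNFAIP3, and the targets BIRC3 and ICAM1. They were 10 of 33458 genes with a row of their own on the array. For a gene with more than 1 row, the brightest row on average was taken. The first 8 genes were listed for their place in the pathway. BIRC3 had been noticed for a lower signal under C6orf141 overexpression and ICAM1 for a gap between the control arrays, so these values are given for both genes as a description, with no test.

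Total RNA was measured on 4 Clariom D arrays, 2 of cells with C6orf141 overexpression and 2 of control cells. Per the labels, the overexpression cells had been stably transfected with the full-length C6orf141 sequence in the pLVX-IRES-Neo vector and selected with G418. The sample titles call the control arrays scrambled controls. The sources used here do not say whether the control cells carried an empty vector or were selected with G418, whether the overexpression cells were a pool or a clone, or whether replicate arrays were of separate cultures. The p-values and standard errors therefore cover the variation between arrays alone, and that variation may be technical. The log base of the deposited values is not stated, and they were taken as log2. Values above 16 exceed the 16-bit range of a scanner, so how the scale was reached is not known. C6orf141 itself had log2 signals of 11.36 and 12.04 on the overexpression arrays and 8.57 and 7.92 on the control arrays. All 7 measured squamous epithelial markers, among them KRT5 and EPCAM, lay above the background level of 5.81, which is the 95th percentile of the mean log2 signal of 400 olfactory receptor genes. Of the endothelial markers 0 of 6 did, of the leukocyte markers 3 of 7 (CD3E, CD68 and CSF1R, with PTPRC below it), and of the fibroblast markers 2 of 5. The means of CD3E and CSF1R, 5.87 and 5.91, were close to the background level. Above 7.72, a level of the negative control rows described below, lay 6 of 7 squamous, 1 of 7 leukocyte, 0 of 6 endothelial and 1 of 5 fibroblast markers.

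NF-kB is a family of dimeric transcription factors that inflammatory cytokines, growth factors and microbial products switch on. In resting cells the dimers are held in the cytoplasm by IkB proteins. The IKK kinase complex marks IkB for degradation, the dimers enter the nucleus, and among the genes they induce are their own inhibitors, which ends the signal. The pathway is often active in squamous carcinoma, where its targets include cytokines, survival proteins and adhesion molecules.

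NF-kB dimers bind short DNA elements called kB sites, and the stretches below are shown because they hold such letters just before the start of 6 of the 10 genes. The kB consensus, a motif of 10 letters, was searched on both strands in the 250 bases before each RefSeq start (GRCh38.p14), together with GGAANTTCC, which overlaps the consensus in some windows. RefSeq promoters were matched by symbol for 8 of the 10 genes, and IKBKB and RELB were not matched. The consensus was found for 5 of these 8 genes, against 11.8% of 27305 genes with such a window. GGAANTTCC was found for 3 of 8, against 0.996% of genes. Capitals mark the matched letters, and each stretch is written 5′ to 3′ on the strand of its gene.
NFKB1: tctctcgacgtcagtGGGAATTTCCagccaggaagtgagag
NFKB2: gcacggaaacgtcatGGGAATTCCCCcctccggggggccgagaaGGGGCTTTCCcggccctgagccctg
NFKBIA: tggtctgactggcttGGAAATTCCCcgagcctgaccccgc
TNFAIP3: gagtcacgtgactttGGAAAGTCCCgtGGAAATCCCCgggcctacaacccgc
BIRC3: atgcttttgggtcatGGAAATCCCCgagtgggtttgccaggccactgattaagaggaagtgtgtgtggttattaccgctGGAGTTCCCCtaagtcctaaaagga
ICAM1: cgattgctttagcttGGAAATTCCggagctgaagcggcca

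These stretches lie at chr4:102501295-102501335 (NFKB1, plus strand), chr10:102394456-102394524 (NFKB2, plus), chr14:35404806-35404845 (NFKBIA, minus), chr6:137867177-137867228 (TNFAIP3, plus), chr11:102317270-102317373 (BIRC3, plus) and chr19:10270919-10270958 (ICAM1, plus). The ICAM1 match began 186 bases before the start and was to GGAANTTCC, without a consensus match in the window. The NFKB1 and NFKBIA matches fit both motifs. The windows of RELA and TRAF1 held neither set of letters. A match is only a description of the letters and was not tested for binding.

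Among the subunits, NFKB1 and NFKB2, which encode precursors of DNA-binding subunits, were nearly equal on all arrays. The log2 signal of NFKB1 was 12.72 and 12.79 on the C6orf141 overexpression arrays and 12.62 and 12.56 on the control arrays. Both overexpression arrays lay above both control arrays, and the log2 fold change was 0.17 (standard error 0.22, limma, 95% interval −0.34 to 0.68). NFKB2 had 11.80 and 11.79 on the overexpression arrays and 11.73 and 11.74 on the control arrays. The groups did not overlap here either, but the difference was only 0.06 on the log2 scale (limma, 95% interval −0.45 to 0.57).

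RELA and RELB encode the subunits that carry the activating domain of the classical and the alternative dimer. RELA had log2 signals of 9.96 and 10.34 on the overexpression arrays and 10.43 and 9.49 on the control arrays. The control arrays held both the highest and the lowest value, so the groups overlapped, and the log2 fold change was 0.19 (standard error 0.34, limma, 95% interval −0.59 to 0.97). Without control replicate 2 it was −0.28. RELB had 7.07 and 7.53 on the overexpression arrays and 7.15 and 7.21 on the control arrays, a log2 fold change of 0.12 (standard error 0.25, limma). Its mean lay below 7.72, the level under which 95% of the negative control rows lay on the array where they were brightest, as did the means of TRAF1 and BIRC3.

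IKBKB encodes the catalytic kinase of the classical IKK complex. Its log2 signal was 8.57 and 8.79 on the overexpression arrays and 8.89 and 8.01 on the control arrays. As for RELA, control array 1 was highest and control array 2 lowest. The log2 fold change was 0.23 (standard error 0.32, limma). It was −0.20 without control replicate 2 and 0.67 without control replicate 1. A second row with the symbol IKBKB and no gene number lay between 3.38 and 4.02 on all arrays, below the background level. TRAF1, an adaptor of TNF receptors and itself an NF-kB target, was also below the background level, with a mean of 5.60. It had 5.73 and 5.33 on the overexpression arrays and 5.88 and 5.47 on the control arrays, a log2 fold change of −0.15 (standard error 0.26, limma). The groups overlapped.

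Both feedback inhibitors lay above the background level on all arrays. NFKBIA encodes IkB alpha, which returns the dimers to the cytoplasm. Its log2 signal was 12.90 and 12.82 on the overexpression arrays and 12.50 and 12.97 on the control arrays, so that both overexpression values lay between the control values. The log2 fold change was 0.13 (standard error 0.25, limma, 95% interval −0.45 to 0.71). TNFAIP3, also called A20, edits ubiquitin chains upstream of IKK. It had 15.80 and 15.92 on the overexpression arrays and 15.85 and 15.61 on the control arrays. The groups overlapped, and the log2 fold change was 0.13 (standard error 0.23, limma, 95% interval −0.40 to 0.66). It was 0.0086 without control replicate 2 and 0.25 without control replicate 1.

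Of the 8 genes from NFKB1 to TNFAIP3, 0 had an unadjusted p below 0.05 in limma in either direction, against 2.11% of all genes. After Benjamini-Hochberg adjustment over all genes 0 of the 8 passed (adjusted p = 1.00 for each). Of all 33458 genes 0 passed, and C6orf141 itself had an adjusted p of 0.214 (limma). With an equal-variance test of each gene alone, 1 of the 8, NFKB2, passed an unadjusted p below 0.05, against 4.08% of all genes. After adjustment of that test 0 of the 8 passed. The log2 fold changes lay between −0.15 for TRAF1 and 0.23 for IKBKB, and their median was 0.13, beside a median of −0.0004 over all genes, and the median was 0.04 without control replicate 2. The groups did not overlap for 2 of the 8 genes, both higher, against 14.3% of all genes with both overexpression arrays higher, 15.1% with both lower and 29.4% in either direction. Of the 7 that lay above the background level, 0 passed the unadjusted threshold, against 0.898% of all genes above that level, and the groups did not overlap for 2, against 27.6%. The standard errors lay between 0.22 and 0.34, and each 95% interval held differences of both signs. In these bulk samples, a change in all cells and a change in some of the cells cannot be told apart.

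**Figure D1:**
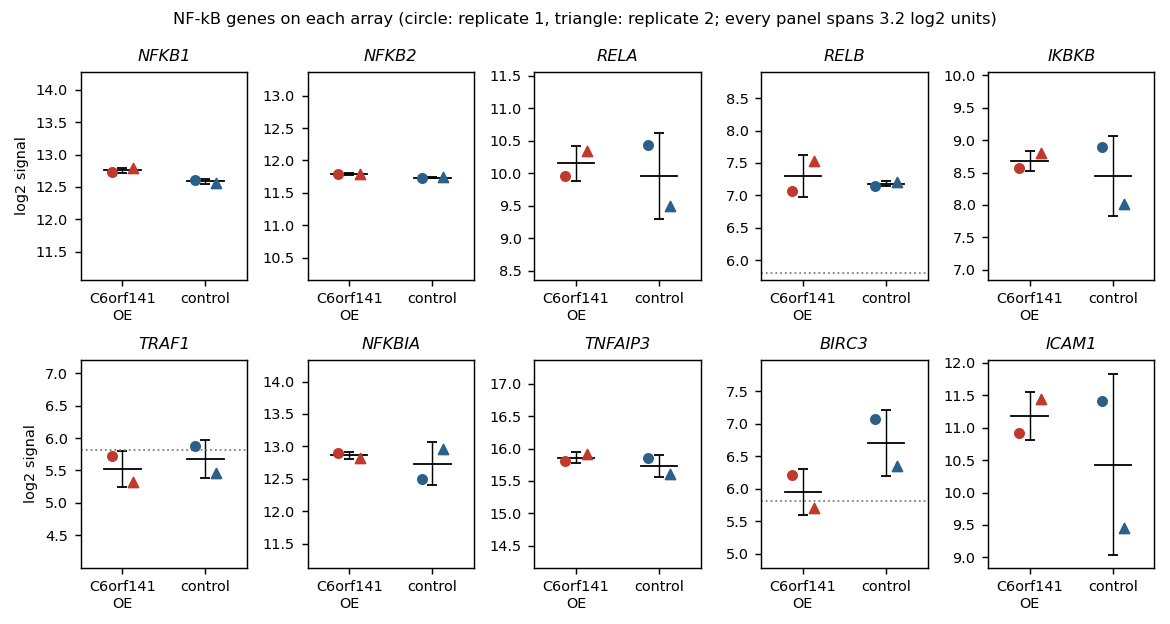
Log2 signal (y axis, every panel spanning the same width) of the 10 genes on the 2 arrays of C6orf141 overexpression (OE, red, left) and the 2 control arrays (blue, right), with circles for replicate 1, triangles for replicate 2, a bar at the group mean and whiskers of 1 SD (n = 2). The dotted line is the background level of 5.81. NFKB1 and NFKB2 were tight in both groups, whereas the control values of ICAM1 were 11.41 and 9.45.

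BIRC3 encodes an inhibitor of apoptosis protein that ubiquitinates components of TNF receptor complexes and is a classical NF-kB target. The row with this symbol had log2 signals of 6.20 and 5.70 on the overexpression arrays and 7.07 and 6.35 on the control arrays. Both overexpression arrays lay below both control arrays. The difference of the means, 5.95 ± 0.36 and 6.71 ± 0.51 (SD, n = 2 each), was −0.75 on the log2 scale, or 0.593-fold. BIRC3 was chosen for this difference. It was −1.11 without control replicate 2 and −0.39 without control replicate 1. The mean of the 4 arrays, 6.33, was above the background level but below the 7.72 of the negative control rows.

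It is not settled that this row measures BIRC3 mRNA. It is the only row with the symbol alone, and of the rows that represent the 10 genes it is the only one with no gene number in the platform annotation. Of the 40 nearest named chromosome 11 rows by array row number, 20 on each side, for which RefSeq gives a strand, 40 were of genes on the minus strand and 0 of genes on the plus strand, and BIRC3 is on the plus strand. Over the whole chromosome 448 such rows were of genes on the minus strand and 496 of genes on the plus strand. Whether the row measures BIRC3 mRNA or another transcript at that place cannot be told here, and the probe sequences were not used.

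BIRC2, the closest relative of BIRC3 and its neighbour on chromosome 11, has a row with a gene number. Its log2 signal was 12.29 and 12.39 on the overexpression arrays and 12.40 and 12.35 on the control arrays, a log2 fold change of −0.03 (standard error 0.22, limma). The list of the inhibitor of apoptosis family and its antagonists held 8 other genes. Of the 8, 0 were higher and 0 lower at an unadjusted p below 0.05 in limma, against 1.04% and 1.07% of all genes. The median log2 fold change of the 8 was 0.03. The smallest p was that of BIRC7, with 0.48 on the log2 scale (standard error 0.22, limma) at a mean below the background level. BIRC5, the mitotic member called survivin, had a log2 fold change of 0.30 (standard error 0.28, limma), which was −0.03 without C6orf141 overexpression replicate 2. BIRC6, a giant ubiquitin ligase of the family, had −0.10, and HTRA2, a mitochondrial protease that antagonizes these proteins, had 0.08. XIAP, the member that inhibits caspases directly, had −0.08 on the log2 scale.

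ICAM1 encodes a cell surface adhesion molecule that binds leukocyte integrins and is induced by NF-kB. Its log2 signal was 10.91 and 11.43 on the overexpression arrays and 11.41 and 9.45 on the control arrays. Control array 1 thus lay at the level of the overexpression arrays, and control array 2 lay 1.96 below control array 1 on the log2 scale, or 3.90-fold lower. The overexpression arrays differed from each other by 0.52. The group means were 11.17 ± 0.37 and 10.43 ± 1.39 (SD, n = 2 each), and their difference of 0.74 was smaller than the SD of the control arrays. It was −0.24 without control replicate 2 and 1.72 without control replicate 1, so that 1 control array sets its direction.

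**Figure D2:**
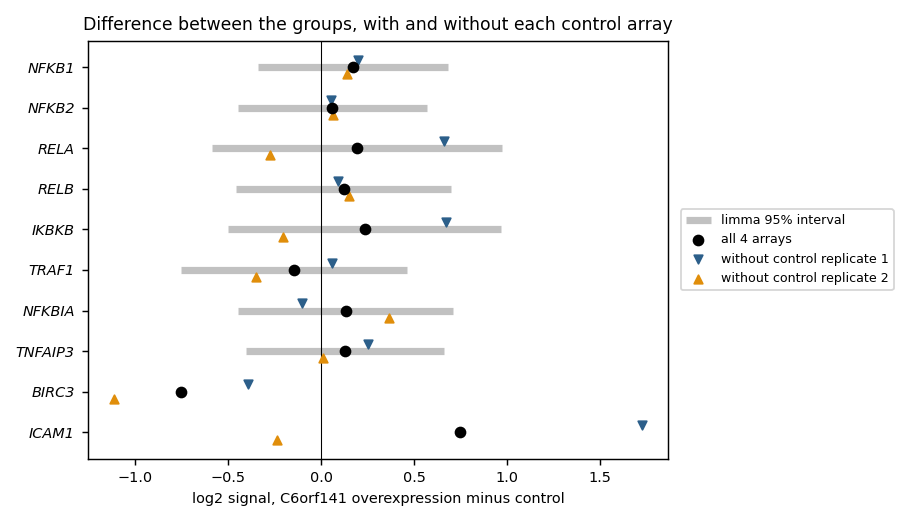
Difference in log2 signal, C6orf141 overexpression minus control (x axis), for the 10 genes (y axis) with all 4 arrays (black circles), without control replicate 1 (blue triangles) and without control replicate 2 (orange triangles). Grey bars are 95% intervals from limma and are not drawn for BIRC3 and ICAM1, which were chosen from these values. For ICAM1 the difference was 0.74, 1.72 and −0.24.

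The ICAM1 gap was among the largest on these arrays. Only 6 of 16146 genes above the background level, or 0.0372%, had a larger gap between the control arrays, where the median gap was 0.27. A gap over 2-fold was found in 0.266% of these genes for the overexpression arrays and in 2.68% for the control arrays. ICAM1 was the only one of the 10 genes to be lower on control array 2 by over 2-fold than on each of the other 3 arrays, which was so for 56 genes or 0.347% of those above the background level, and 4 genes were higher there by as much. These are the values by which ICAM1 was chosen.

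The other members did not share a single pattern between the control arrays. RELA and IKBKB were lower on control array 2 by 0.94 and 0.87 on the log2 scale, gaps that 3.59% and 4.81% of the genes above the background level exceeded. NFKBIA was higher there by 0.47. NFKB1 and NFKB2 differed by 0.06 and 0.01 between the control arrays. Among the genes with kB letters before their start, the gaps ran from 0.01 for NFKB2 to 1.96 for ICAM1, which was chosen for its gap. A relation between these letters and the gaps was not tested. Of the 7 genes above the background level other than BIRC3 and ICAM1, control array 2 was the lowest of the 4 arrays for 4, against 36.5% of all genes above that level.

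**Figure D3:**
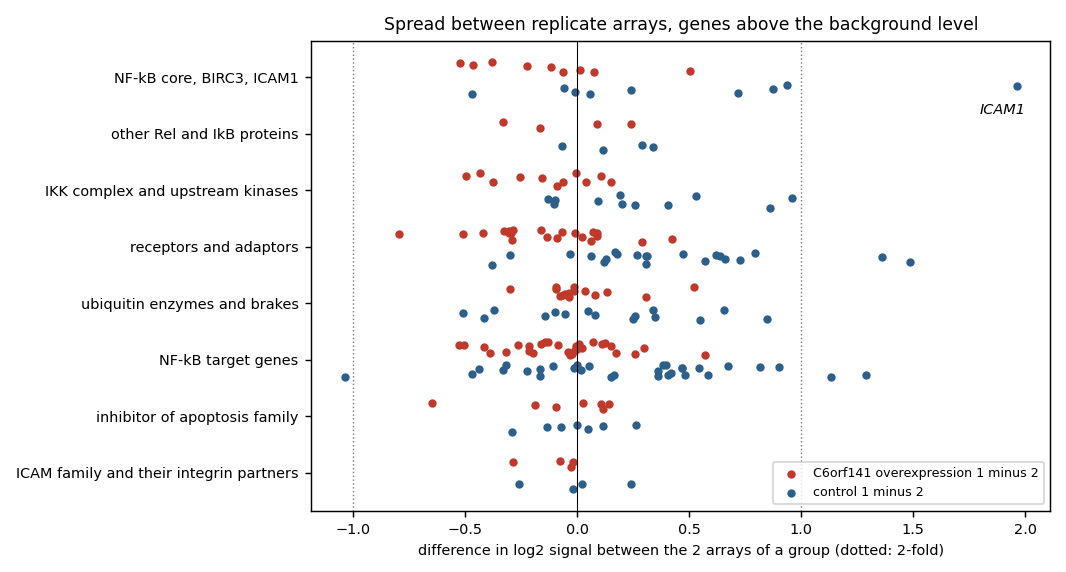
Difference in log2 signal between the 2 arrays of a group (x axis), replicate 1 minus replicate 2, for genes above the background level of each list (y axis), with the C6orf141 overexpression arrays in red and the control arrays in blue. Each point is a gene, and dotted lines mark 2-fold. ICAM1 is the point at 1.96, and all gaps over 2-fold are between the control arrays.

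The wider pathway was described with 7 lists of other genes by role, 112 measured genes in all. Of these 0 were higher and 0 lower at an unadjusted p below 0.05 in limma, beside 1.04% and 1.07% of all genes. Of the 92 above the background level 0 passed, against 0.898% of all genes above that level. After adjustment 0 of the 112 passed (adjusted p = 1.00 for each in limma), as did 0 of all 33458 genes. With the equal-variance test of each gene alone, 4 of the 112 had an unadjusted p below 0.05, against 4.08% of all genes, and 0 passed after adjustment. These were IRF1, TNF and BIRC7, which were higher, and LTB, which was lower. TNF and BIRC7 lay below the background level. LTB, with a mean of 5.88, lay just above it but below the 7.72 of the negative control rows. The means of IKBKG, TRAF4, TRADD and RNF31, described below, also lay between these levels. The fold change of 66 of the 112 genes changed sign when some single array was left out. Genes whose groups did not overlap cannot change sign in this way. The same count over all genes was not made, so it does not show whether the pathway differs from other genes. The median log2 fold change of the 112 was −0.0054. The groups did not overlap for 17 genes that were higher and 14 that were lower, against 14.3% and 15.1% of all genes. Control array 2 was the lowest of the 4 arrays for 47.8% of the 92 pathway genes above the background level, against 36.5% of all genes above it.

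Among 5 other Rel and IkB genes, REL, a subunit prominent in lymphoid cells, had a log2 fold change of −0.15 (standard error 0.23, limma) and NFKBIE, which encodes IkB epsilon, had 0.38 (standard error 0.25, limma). NFKBIZ, a nuclear IkB protein, had −0.12. NFKBID, another nuclear IkB protein, had 0.27 at a mean below the background level, and −0.22 without control replicate 2. The median of the 5 was −0.02. The groups overlapped for 2 of the 5. They did not for 1 that was higher and 2 that were lower, against 14.3% and 15.1% of all genes.

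Of 12 genes of the IKK complex and of the kinase complexes upstream of it, MAP3K14, the NIK kinase of the alternative pathway, had the smallest p. Its log2 signal was 8.55 and 8.64 on the overexpression arrays and 8.47 and 7.61 on the control arrays, a log2 fold change of 0.55 (standard error 0.31, limma). Here too control array 2 lay apart, and the difference was 0.12 without control replicate 2. IKBKG, the regulatory subunit NEMO, had a log2 fold change of 0.48 (standard error 0.35, limma) and IKBKE, a related kinase, 0.45 (standard error 0.28, limma). Without control replicate 2 these were 0.0055 for IKBKG and 0.19 for IKBKE. RIPK2, the kinase that acts below NOD receptors, had −0.11, and TAB2 and TAB3, adaptors of the kinase TAK1, had −0.14 and −0.04. CHUK, the catalytic partner of IKBKB, had −0.22. The median of the list was −0.05.

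The 21 receptors and adaptors had a median log2 fold change of 0.07, which was −0.10 without control replicate 2. The smallest p was that of TRAF4, an adaptor of epithelial cells, with 0.43 (standard error 0.28, limma), followed by TNFRSF12A, the receptor for TWEAK, with 0.36 (standard error 0.25, limma) and TRADD, the adaptor of TNF receptor complexes, with 0.37 (standard error 0.30, limma). Without control replicate 2 TRAF4 and TNFRSF12A both had 0.12, and TRADD had −0.03 without C6orf141 overexpression replicate 2. TRAF3, an adaptor that restrains the alternative pathway, had −0.02. EGFR, which also feeds into NF-kB, had 14.14 and 14.30 on the overexpression arrays and 14.12 and 13.95 on the control arrays. Control array 2 was the lowest for 14 of these 21 genes, against 36.5% of all genes above the background level. The largest gaps between the control arrays in this list were those of MYD88, the adaptor of Toll-like and interleukin receptors, and LTBR, the lymphotoxin beta receptor, both named after their values were seen. MYD88 had 10.36 and 10.65 on the overexpression arrays and 10.92 and 9.43 on the control arrays. LTBR had 12.08 and 12.59 on the overexpression arrays and 12.55 and 11.19 on the control arrays.

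The 17 ubiquitin enzymes and brakes had a median log2 fold change of −0.02, with 7 positive and 10 negative. Among them SHARPIN had the smallest p of all pathway genes. SHARPIN is a subunit of the linear ubiquitin assembly complex that helps to activate IKK. Its log2 signal was 10.87 and 10.34 on the overexpression arrays and 9.83 and 10.20 on the control arrays, with both overexpression arrays above both control arrays. The log2 fold change was 0.59 (standard error 0.27, limma, 95% interval −0.04 to 1.23). Control array 2 was not the low one here, and the difference was 0.78 without control replicate 2. RBCK1, another subunit of that complex, had 0.34 (standard error 0.26, limma), and RNF31, its catalytic subunit, had 0.24. Without control replicate 2 these were 0.06 for RBCK1 and −0.08 for RNF31. TNIP3, a partner of TNFAIP3, had the second smallest p of the list with −0.36 (standard error 0.25, limma), at a mean below the background level, and OTULIN, which cuts linear ubiquitin chains, had −0.29 (standard error 0.23, limma). UBE2V1, ZFAND5 and TAX1BP1, all with roles in ubiquitin signalling to NF-kB, had −0.09, 0.06 and −0.12.

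The 39 other NF-kB target genes had a median log2 fold change of −0.05, from −0.30 to 0.28. PTX3, a soluble pattern recognition protein, had 0.28 (standard error 0.23, limma), CXCL8, a neutrophil chemokine, −0.30 (standard error 0.25, limma), and IRF1, a transcription factor of interferon responses, 0.24 (standard error 0.22, limma). IL1B had 17.82 and 17.75 on the overexpression arrays and 17.91 and 17.91 on the control arrays, a log2 fold change of −0.12 (standard error 0.22, limma). IER3, an early response gene, had 0.20, which was −0.13 without control replicate 2. F3, the gene of tissue factor, had −0.22. These differences were of both signs, with 15 positive and 24 negative, and 0 genes passed.

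The relatives of ICAM1 and the proteins it connects to were also compared. ICAM2, another ligand of leukocyte integrins, had a log2 signal of 7.95 and 8.24 on the overexpression arrays and 7.93 and 7.90 on the control arrays, a log2 fold change of 0.18 (standard error 0.23, limma). ICAM3, ICAM4 and ICAM5 lay below the background level, as did the integrin genes ITGAL, ITGAM, ITGAX and ITGB2, whose products are the leukocyte partners of ICAM1. EZR, MSN and RDX, which tie ICAM1 to the actin cortex, had log2 fold changes of 0.03, 0.10 and −0.28.

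The genes whose 4 log2 values, centred on their mean, came closest to those of ICAM1 were WDR6, RNF40, L1CAM, TMEM259 and AXL, out of 14781 genes compared. Their root mean square distances were 0.03 for WDR6, 0.08 for RNF40, 0.10 for L1CAM, 0.15 for TMEM259 and 0.17 for AXL. WDR6 had 7.63 and 8.12 on the overexpression arrays and 8.06 and 6.12 on the control arrays. AXL, a receptor tyrosine kinase gene, had 14.10 and 14.42 on the overexpression arrays and 14.30 and 12.77 on the control arrays. Since the genes were picked for likeness to ICAM1, a low value on control array 2 follows from the choice.

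The genes closest to the BIRC3 row were RPS12P27, NR5A2, VDAC1P3, HNRNPA1P51 and ARRDC3, with distances from 0.08 to 0.16 on the log2 scale. RPS12P27, VDAC1P3 and HNRNPA1P51 are pseudogenes, whose probes may also take up RNA of the genes they were copied from. NR5A2, a nuclear receptor gene, had 6.50 and 6.13 on the overexpression arrays and 7.36 and 6.93 on the control arrays. ARRDC3, an arrestin domain gene, had 9.83 and 9.42 on the overexpression arrays and 10.35 and 9.86 on the control arrays. No p is given for a likeness over 4 arrays.

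**Figure D4:**
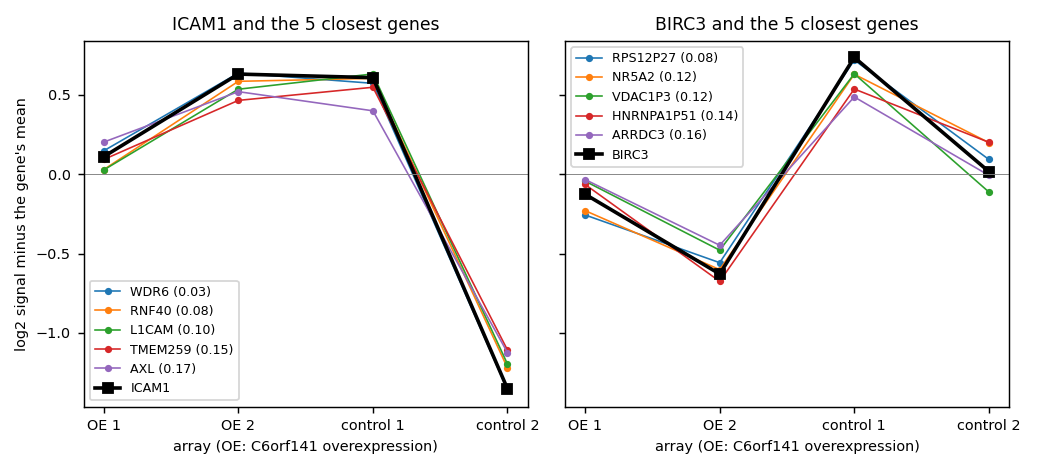
Log2 signal minus the mean of each gene (y axis) on the 4 arrays (x axis, OE for C6orf141 overexpression) for ICAM1 (left, black) and BIRC3 (right, black) with the 5 closest genes of each in colour and their root mean square distance in brackets. The ICAM1 group drops on control array 2, and the BIRC3 group is highest on control array 1.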

How the data were processed

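RNA of SAS cells was labelled by the authors with the WT PLUS kit and hybridized to Clariom D arrays. The authors deposited 1 gene-level log2 value per transcript cluster and array, made with Expression Console per the labels; Partek was named for the comparison. No source used here gives the summarising algorithm, the log base, tool versions or the genome build of the array. The values, from 1.62 to 19.27, were taken as log2, since other usual bases would give far larger intensities; values above 16 exceed the 16-bit scanner range on this scale. They were used with no further normalization. The number of arrays limits the precision.

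After 2995 array control rows were left out, 135750 rows were fitted by lmFit and two-sided eBayes (limma 3.58.1, R 4.3.3). Gene names came from the platform annotation, with 25516 of 36176 rows with 1 symbol matched by gene number to RefSeq (GRCh38.p14) and 623 older symbols updated. Rows with several symbols (1119) were not named. P-values were adjusted over 33458 genes (Benjamini-Hochberg, threshold 0.05). The fit was tested on simulated data. Named genes were all 10 members, in each list those past an unadjusted p below 0.05 or else the 3 smallest p-values, and the 3 highest signals, C6orf141, and the 5 closest profiles of ICAM1 and BIRC3. CHUK, RNF31, OTULIN, XIAP, MYD88, LTBR, TNF, LTB, CXCL1, PTGS2, SERPINA3 and the other ICAM and integrin genes fall outside this rule and were named after their values were seen. Members, lists and tests were chosen with earlier results of these data known, so no list is independent evidence. Alternatives were quantile normalization, median centring, trend and robust settings, an equal-variance test of each gene alone (the sources name no test), only genes above background, averaging the rows of each gene, a replicate block and leaving out each array.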

Additional observations from a re-analysis of the deposited data

How the results depend on the processing

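Of the 8 tested members, the count at an unadjusted p below 0.05 in limma was 0, and it was 1 with an equal-variance test of each gene alone (NFKB2) and 0 to 1 with 1 array left out, where IKBKB passed without control replicate 1. Of the 112 pathway genes the count was 0, and it was 1 with trend and robust settings (SHARPIN), 2 when a gene's rows were averaged (SHARPIN and BIRC7), 4 with the equal-variance test and 1 to 6 with 1 array left out, with 6 without control replicate 1. The share of all genes past that threshold was 2.11% in limma, 2.05% with trend and robust settings, 3.23% with averaged rows, 4.08% with the equal-variance test and 4.76% without control replicate 1. After adjustment, 0 of the tested members and 0 of the pathway genes passed under every alternative run. Over all genes, 1 passed after adjustment in the trend and robust fit, 1 in the replicate block fit and 1 in the crossed pairs described below. What made these counts and shares differ was not tested. Where 1 array of a group was left, its spread was taken from the other group.

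The log2 fold change of IKBKB turned to −0.0087 with the mean of its rows, which takes in a row below the background level. With 1 array left out it ranged from −0.20 to 0.67 for IKBKB, −0.28 to 0.66 for RELA, −0.11 to 0.35 for RELB, −0.10 to 0.36 for NFKBIA, −0.35 to 0.0595 for TRAF1, −0.24 to 1.72 for ICAM1 and −1.11 to −0.39 for BIRC3. The signs of NFKB1, NFKB2, TNFAIP3 and BIRC3 held in all of these. For NFKB1, NFKB2 and BIRC3 this follows from groups that did not overlap, and BIRC3 was chosen for its lower signal. Quantile normalization and median centring changed no call and no sign of a member.

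Arrays with the same replicate number tended weakly to deviate in opposite directions (r = −0.112 over all genes, which are not independent replicates, and −0.271 above the background level). Whether the replicate numbers mark a shared preparation cannot be told from so few arrays, and the numbers are used here only to name arrays. The replicate block gave 0 members and 0 pathway genes at an unadjusted p below 0.05 in limma, against 1.87% of all genes. Crossed pairs, added after the values were seen, gave 0 and 1, against 2.25% of all genes.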

Other observations

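The NF-kB target genes did not move together between the control arrays. Of the 31 targets above the background level other than BIRC3 and ICAM1, 21 were lower and 10 higher on control array 2. The same count over all genes was not made, so these numbers do not show whether the targets differ from other genes. Control array 2 was the lowest of all arrays for 41.9% of these targets, against 36.5% of all genes above the background level. The median gap of the targets on the log2 scale was 0.14 between the overexpression arrays and 0.40 between the control arrays. The same medians over all genes above the background level were 0.16 for the overexpression pair and 0.27 for the control pair. In 3 of the 31 targets, named after their values were seen, the gap between the control arrays was over 2-fold, against 2.68% of genes above the background level. CXCL1, a neutrophil chemokine, had 12.44 and 12.82 on the overexpression arrays and 13.28 and 11.99 on the control arrays. PTGS2, the inducible cyclooxygenase, had 10.92 and 10.94 on the overexpression arrays and 11.55 and 10.42 on the control arrays. SERPINA3, a protease inhibitor of the acute phase, went the other way, with 12.02 and 11.45 on the overexpression arrays and 11.43 and 12.46 on the control arrays. Between the overexpression arrays 0 of the 31 had a gap over 2-fold, against 0.266%.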
